A study of Ovis aries with 48 samples.

Results

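Visceral fat was compared with subcutaneous fat in 4 control female sheep, from 8 of the 48 small RNA libraries of a series on prenatal exposure to testosterone or bisphenol A (BPA). Libraries were chosen by their labels alone, as all control libraries of the BPA cohort: 4 of visceral and 4 of subcutaneous adipose tissue, 1 of each from sheep 902, 908, 924 and 928. The mothers of these sheep had been injected under the skin each day with corn oil, the vehicle of BPA, from gestational day 30 to 90. After birth the sheep of all groups lived together on a maintenance diet that kept them from obesity. BPA-exposed sheep, whose mothers had 0.5 mg of BPA per kg per day over the same days, and the control sheep of the testosterone (T) cohort serve below as 2 further sets of 4 sheep each. For the T cohort controls the same gestational days, 30 to 90, are listed, and their treatment is not described further here. The labels do not state the age at sampling. The series asks how prenatal exposure changes non-coding RNA in each fat depot, and the control sheep give the difference between depots without exposure.

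MicroRNAs are short RNAs that pair with messenger RNAs and lower the output of the proteins they encode, and many act on the growth of fat cell precursors and their conversion to adipocytes. Subcutaneous fat lies under the skin, whereas visceral fat surrounds the abdominal organs, is covered by mesothelium, an epithelium-like sheet, and arises from other precursors in the embryo. The files also count fragments of snoRNAs, which guide chemical modification of ribosomal RNA, of snRNAs, which act in splicing, and of long non-coding RNAs (lncRNAs).

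The 8 libraries held between 438194 and 1208561 reads in these 4 classes, of which 83.8% to 86.5% fell in microRNAs. Levels are given as normalised reads, the reads of a library brought to a common scale of the 8 libraries within each RNA class, and a log2 fold change is visceral minus subcutaneous on log2(normalised reads + 1), which understates the change of RNAs of low level. RNAs were called at an adjusted p under 0.05 in a limma fit with sheep as a block and Benjamini-Hochberg adjustment within the class, and the adjusted p-values below come from this fit. Library numbers in the labels form 2 sets, an early and a later one. Both libraries of sheep 902 were of the later set and both of sheep 908 of the early set, whereas in sheep 924 and 928 the subcutaneous library was later and the visceral one early. In these last 2 sheep depot and set cannot be told apart, and the mean difference over sheep 902 and 908, within a set, is given beside some results. The set can bear on results given without it too. The snoRNA share of reads moved with the set: it was 2.25% to 3% in the 3 later subcutaneous libraries and 2.55% in the later visceral one, against 0.985% in the early subcutaneous and 1.02% to 1.10% in the early visceral libraries. It was lower in visceral fat in 3 of 4 sheep (exact sign-flip permutation test over sheep, two-sided p = 0.25, where 2 of 16 sign patterns is the smallest share that 4 sheep allow).

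Of 462 RNAs tested, 48 (10.4%) were called, 20 higher (4.33%) and 28 lower (6.06%) in visceral fat. The class with the largest share of calls was the microRNAs, with 28 of 74 (37.8%). It was 10% for lncRNAs (15 of 150), 5.41% for snRNAs (2 of 37) and 1.49% for snoRNAs (3 of 201). In all 48 the difference had the same direction in 4 of 4 sheep, against 177 of all 462 tested, and in 29 of them the visceral and subcutaneous values did not overlap, against 83 of all 462 tested (18%). Scaling moved the split of calls, since it shifted the median log2 fold change of all RNAs from -0.07 to -0.48 as deposited, where the size factors had been set within each depot, and to 0.14 in CPM, with reads scaled to equal totals of the class. Higher calls made up 41.7% of all calls on the common scale, 15.3% as deposited and 61.7% in CPM. For the microRNAs these medians were -0.07, -0.24 and -0.05.

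The largest difference among microRNAs was in the MIR200 family, which is abundant in epithelia and in mesothelium and holds back the repressors ZEB1 and ZEB2. MIR200B had 14.4, 5.37, 11.6 and 5.37 normalised reads in the subcutaneous fat of sheep 902, 908, 924 and 928, and 119, 86.9, 179.7 and 335 in their visceral fat. Every visceral library lay far above every subcutaneous one, and the log2 fold change was 4.08 (SE 0.42, adjusted p = 4.29e-17), or 16.9-fold. Within a set, in sheep 902 and 908, the mean difference was 3.37. MIR200A, its neighbour in the RefSeq annotation (assembly ARS-UI_Ramb_v3.0), had 1.96, 0.596, 5.82 and 1.79 against 19.6, 5.79, 20.5 and 40, a log2 fold change of 2.61 (adjusted p = 5.01e-06, SE 0.49). It was higher in visceral fat in all 4 sheep, while the lowest visceral value fell just under the highest subcutaneous one. The subcutaneous values of MIR200A rested on 1 to 9 reads per library, and those of MIR200B on 3 to 22.

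MIR200C, a family member at another locus, had 20.3, 44.1, 50.5 and 14.3 in subcutaneous and 19.6, 22, 18.6 and 10.3 in visceral fat. Its groups overlapped, with a log2 fold change of -0.71 (adjusted p = 0.206, SE 0.44). The 3 measured microRNAs of the list for epithelium and mesothelium, of 11 listed, together made up 31.8 to 157 CPM of microRNA reads in subcutaneous and 210 to 720 in visceral libraries. Of the other cell type markers, MIR133 of striated muscle was at 117 to 323 CPM in subcutaneous and 72.5 to 389 in visceral fat, and MIR150 of lymphocytes at 3532 to 11702 and 4407 to 5139. MIR143, abundant in smooth muscle, was at 27281 to 71521 and 24850 to 43139. None of these 3 was called (log2 fold changes -0.12, -0.50 and -0.12, adjusted p = 0.791, 0.0807 and 0.696). MIR150 was called lower as deposited (-0.68), without sheep 928 (-0.75) and with a set term but no sheep block (-0.76). MIR143 was called lower in the last of these (-0.63). In bulk tissue more cells of a type and more RNA per cell cannot be told apart, and the part of mesothelial cells in the MIR200 difference was not tested.

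**Figure D1:**
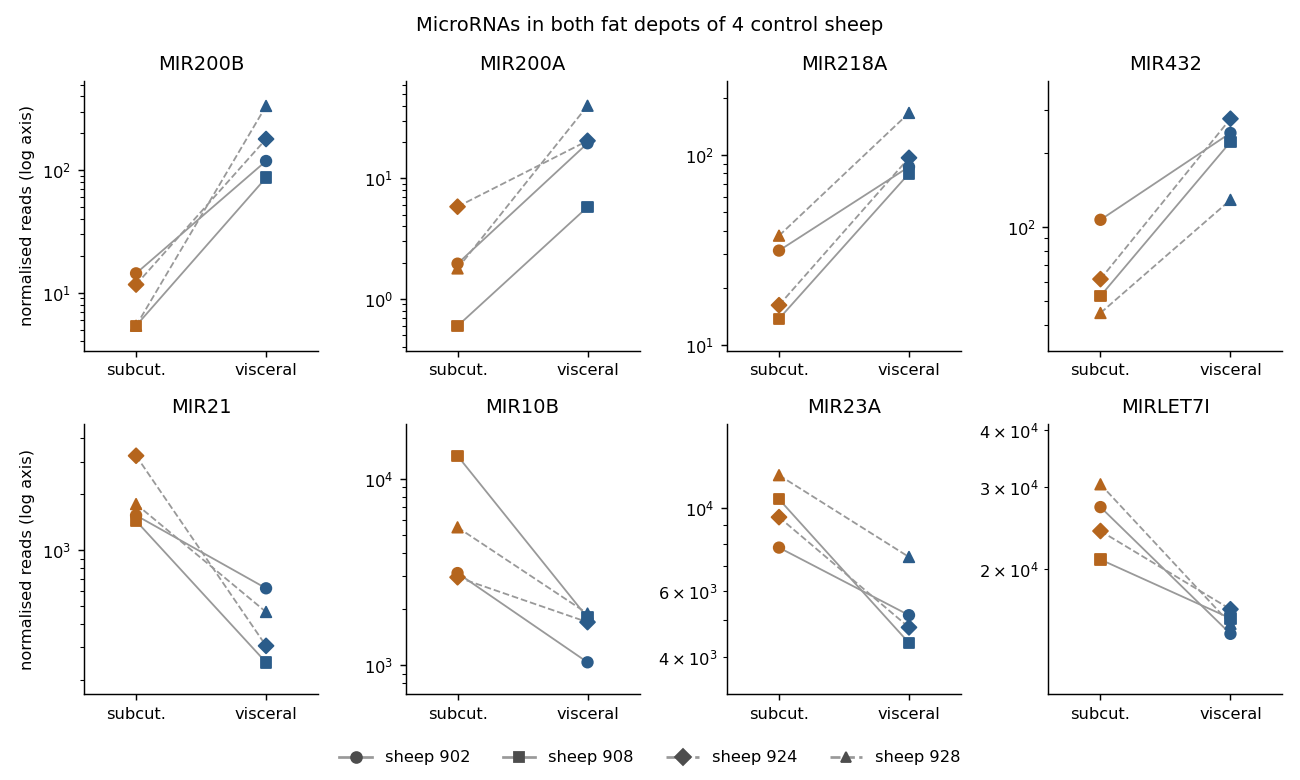
Normalised reads (log axis, its range set for each microRNA) of 8 microRNAs in subcutaneous (brown) and visceral (blue) fat, with a line joining the libraries of a sheep (solid where both are of 1 library set, dashed where they are not). The upper row rises in all 4 sheep, from 5.37 to 14.4 up to 86.9 to 335 for MIR200B, and the lower row falls in all 4.

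MIR218A, which lies in SLIT3, a gene for a secreted guidance protein, was also higher. It had 31.4, 13.7, 16.2 and 37.6 normalised reads in subcutaneous and 86.7, 79.9, 96.7 and 167 in visceral fat. The groups did not overlap, and the log2 fold change was 2.13 (SE 0.41, adjusted p = 5.01e-06), with 1.95 within a set. MIR218A was not called with a term for the library set beside the sheep block. MIR199A, the other measured microRNA of the mesenchymal list, in DNM3, went the other way, from 15869.5 ± 5732 to 10569.7 ± 2749 (mean ± SD, n = 4), a log2 fold change of -0.55 (adjusted p = 0.0339, SE 0.22) in overlapping groups. MIR199A was not called without the sheep block, with the set term and block, with edgeR or DESeq2 on recovered reads, in 1 fit over the 4 classes or with the BPA-exposed libraries in the fit. The same held without any 1 of sheep 902, 908 and 924, where the log2 fold change ran from -0.62 to -0.29.

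MicroRNAs of the DLK1-DIO3 region, an imprinted domain that expresses its non-coding RNAs from the maternal chromosome, were the largest group that was higher in visceral fat. Of 54 members listed in the files, 25 passed the filter on low values (mean of at least 5), and 9 were higher and 0 lower, with a median log2 fold change of 0.73 against -0.07 over all 74 microRNAs tested, of which 17.6% were higher and 20.3% lower. With 51 members tested and no filter, 11 were higher, 0 lower and the median was 0.41. The 9 were MIR432, MIR433, MIR485, MIR543, MIR382, MIR154B, MIR370, MIR127 and MIR409. Together the members made up 2879 to 8837 CPM of microRNA reads in subcutaneous and 7869 to 13493 CPM in visceral libraries, higher in visceral fat in each sheep. The subcutaneous sum of sheep 902 overlapped the visceral range.

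MIR432, which had the largest difference of the region, lay at 107.2, 52.5, 61.5 and 44.8 normalised reads in subcutaneous and 242, 222, 276 and 129 in visceral fat, without overlap (log2 fold change 1.72, SE 0.36, adjusted p = 4.07e-05). MIR433 had 30.1, 16.1, 23.9 and 7.16 against 64.3, 75.3, 53.7 and 36.2, also without overlap (1.64, SE 0.43, adjusted p = 0.001). MIR127, processed from a transcript antisense to the imprinted gene RTL1, was the most abundant of the region, with 3082, 1047, 1939.6 and 1525 against 5846, 3078, 2749.8 and 2969. Its difference was smaller, at 0.99 (SE 0.24, adjusted p = 0.000421), and the groups overlapped because sheep 902 was high in both depots.

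MIR382 (1.405), MIR485 (1.62), MIR543 (1.495) and MIR154B (1.26) had log2 fold changes between those of MIR432 and MIR127. Sheep 902 had the smallest visceral excess of the 4 in MIR382, MIR485, MIR543 and MIR154B. MIR370 had 90.2, 8.95, 42.1 and 23.3 normalised reads in subcutaneous and 95.1, 83.4, 54.7 and 42.6 in visceral fat, so that its log2 fold change of 1.09 (adjusted p = 0.0254, SE 0.41) leaned on sheep 908. Without sheep 908 it was 0.45 and not called, and neither MIR370 nor MIR409 was called without the sheep block. Over the region 6 members were higher without any 1 of sheep 908, 924 and 928, and 10 without sheep 902. Among the members with a fitted value below 0 were MIR412 (-0.37), MIR3958 (-0.27), MIR494 (-0.20) and MIR323A (-0.08), none of them called. A term for the library set beside the block, which leaves only sheep 902 and 908 to carry the depot, kept the median at 0.79 with 1 member called.

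**Figure D2:**
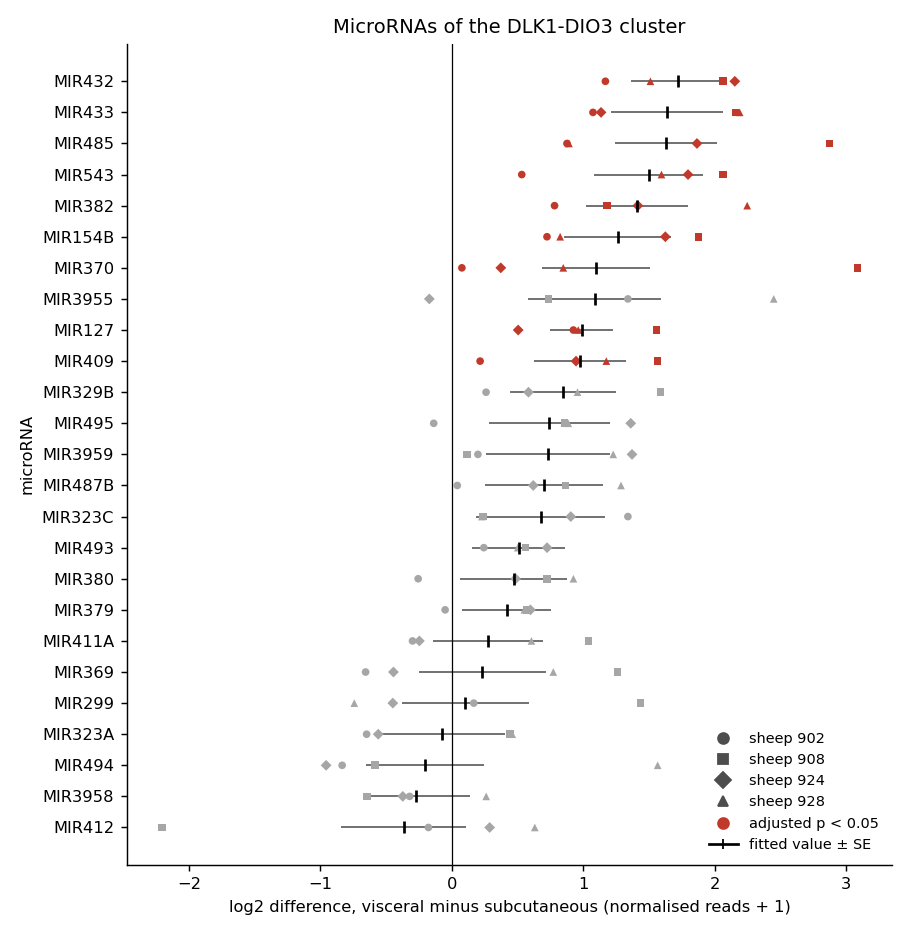
Visceral minus subcutaneous log2 difference of the 25 tested microRNAs of the DLK1-DIO3 region in each of 4 sheep (symbols), with the fitted value and its SE (black). The 9 called members (red) lie above 0 in every sheep, and the fitted values run from -0.37 for MIR412 to 1.72 for MIR432.

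The other RNA classes of the DLK1-DIO3 region did not pass the test. The lncRNA LOC105606646, which overlaps most of these microRNAs in the annotation so that its reads may be theirs, had 388, 129.8, 204 and 114 normalised reads in subcutaneous and 353, 282, 321 and 191 in visceral fat. It was higher in visceral fat in 3 of 4 sheep (log2 fold change 0.59, SE 0.37, adjusted p = 0.308). The 3 tested snoRNAs inside it had a median of -0.23, and none was called.

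Among the microRNAs lower in visceral fat, MIR21 stood furthest down. MIR21, which lies in VMP1, is induced in growth, inflammation and fibrosis and is known to favour adipogenesis. It had 1539.6, 1438, 3223 and 1770.5 normalised reads in subcutaneous and 624, 249, 306 and 465 in visceral fat. All visceral values were below all subcutaneous ones, by a log2 fold change of -2.29 (adjusted p = 1.13e-13, SE 0.27), a 4.88-fold difference, with -1.91 within a set. In its list for inflammation and fibrosis 2 of 5 tested members were lower and 0 higher (median -0.50), where 20.3% of all microRNAs were lower. The other was MIR29A, a microRNA that represses collagens, with 3224 ± 868 against 1946 ± 519 (mean ± SD, n = 4) and a log2 fold change of -0.73 (adjusted p = 0.0101, SE 0.24). MIR29A fell by 0.32 within a set and was not called with the set term. Among the 5 tested members of the list, MIR29B-1 and MIR29B-2 had identical reads in every library, so that they count as 1 result.

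The 2 measured microRNAs of the HOX clusters, which lie among the genes that give cells their position along the body, behaved differently. MIR10B, in HOXD4, had 3117, 13232, 2961 and 5479.6 normalised reads in subcutaneous and 1038, 1800.0, 1703 and 1893 in visceral fat. It was lower in all 4 sheep without overlap, with a log2 fold change of -1.70 (adjusted p = 2.2e-10, SE 0.24) and -2.23 within a set. MIR10A, of the same family but known from the HOXB cluster, had 815, 4848, 981 and 1323 against 1094, 2072, 2737 and 3246. It was higher in visceral fat in 3 of 4 sheep and lower in sheep 908, with overlapping groups and no call (0.49, SE 0.25, adjusted p = 0.104). Without sheep 908 MIR10A was called higher, at 1.09 (adjusted p = 0.000619).

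All 3 measured members of the MIR23, MIR27 and MIR24 clusters were lower, with a median of -0.90. Of all 74 microRNAs 20.3% were lower, with a median of -0.07 over the 74. MIR23A had 7830.1, 10549.8, 9446 and 12232 normalised reads in subcutaneous and 5163, 4352, 4789.5 and 7389.6 in visceral fat, without overlap (log2 fold change -0.90, SE 0.22, adjusted p = 0.000543). MIR27A, its neighbour, is known to hold back adipogenesis by repressing PPARG, and had 4096, 2933, 3967 and 5281 against 3103, 1896, 1601 and 2076 (-0.92, SE 0.24, adjusted p = 0.000805). The groups overlapped for MIR27A, and within a set it fell by 0.51. MIR23B, of the paralogous cluster in AOPEP, had a log2 fold change of -0.58 (adjusted p = 0.031, SE 0.22) and no overlap. MIR23B was not called without the sheep block, with the set term and block, in CPM, with edgeR, in 1 fit over the 4 classes or without any 1 sheep, and MIR27A was not called with the set term and block. The mature forms of MIR23A and MIR23B are nearly identical, and the sources do not say how reads that match both were counted. MIR17, of the growth-promoting MIR17 cluster, had 42.5, 71.6, 110.02 and 48.3 against 35, 26.6, 21.5 and 28.4, lower without overlap (-1.18, SE 0.41, adjusted p = 0.0164). It was the only one of 4 tested members of its list to be called, against 37.8% of all 74 microRNAs. Without sheep 908 or sheep 924, in CPM, with either set term, and in 1 fit over the 4 classes, MIR17 lost its call.

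Of 11 tested microRNAs listed as pro-adipogenic, 4 were lower and 0 higher, with a median of -0.39, where 20.3% of all 74 microRNAs were lower and 17.6% higher with a median of -0.07. They were MIR26B (-0.83), MIR26A (-0.51), MIR148A (-0.69) and MIR152 (-0.69). MIR26B and MIR26A lie in CTDSP1 and CTDSP2, a pair of related phosphatase genes, and MIR26B had 5801, 11738, 7981 and 7950.0 normalised reads in subcutaneous against 3597, 4860.2, 4760.2 and 5189 in visceral fat, without overlap (SE 0.22, adjusted p = 0.00148). MIR148A and MIR152 share a seed and had overlapping groups (adjusted p = 0.0149 and 0.0339). The count of lower members was 1 without the sheep block, where MIR148A and MIR152 were not called. It was also 1 without sheep 908, without sheep 924, with the set term and block, and in 1 fit over the 4 classes. With edgeR on the recovered reads it was 1 as well, and the median was -0.31. The count was 5 with the scaling as deposited and 5 with the set term but no block.

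Of 9 tested microRNAs listed as anti-adipogenic 1 was higher and 3 were lower, with a median of -0.30, against 17.6% and 20.3% of all microRNAs. The counts were 0 and 1 without sheep 902, 0 and 0 with the set term and block, and 1 and 5 with the scaling as deposited. Its let-7 members, which accumulate as cells differentiate, moved apart. MIRLET7B, among the most abundant microRNAs of these libraries, had 79303, 76028, 46144 and 101485 normalised reads in subcutaneous and 159790.0, 139421, 132473 and 121237 in visceral fat. It was higher in every visceral library than in any subcutaneous one (0.92, SE 0.21, adjusted p = 0.00029). MIRLET7I went the other way, from 25681 ± 4088 to 15398 ± 789.6 (mean ± SD, n = 4), also without overlap (-0.73, SE 0.22, adjusted p = 0.00409). Both MIRLET7B and MIRLET7I lost their calls without sheep 902 and with the set term and block. MIRLET7A had 108949 ± 29546 and 106855 ± 7998 (0.01, SE 0.21, adjusted p = 0.974). The median of the 7 tested let-7 members was 0.01. It turned to -0.17 with the scaling as deposited, where 1 member was higher and 3 lower, and was 0.03 in CPM. Mature let-7 sequences differ at few bases, so that reads may be shared between members. MIR221, the third lower member of the list beside MIR27A and MIRLET7I, had 2106 ± 319 against 1333 ± 219.7 (-0.66, SE 0.25, adjusted p = 0.0254), and was not called with the set term and block, in CPM, with edgeR, in 1 fit over the 4 classes or without any 1 of sheep 902, 908 and 924.

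In the remaining lists, 1 of 2 tested members of the MIR99 and MIR125 group was lower, MIR99A (-0.63, SE 0.21, adjusted p = 0.0144). MIR99A was not called without the sheep block, with the set term and block, or with the BPA-exposed libraries in the fit. The same held without sheep 902 and without sheep 908. The list for insulin and glucose had 1 of 8 lower, MIR29A, and 0 higher, and its members MIR29B-1 and MIR29B-2 had identical reads. For both lists the share over all 74 microRNAs was 20.3% lower and 17.6% higher. Both measured MIR181 genes, MIR181A-1 and MIR181A-2, were not called, with log2 fold changes of 0.12 and 0.13. Their reads were nearly the same in each library, so that they may be shared.

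A pair of snRNA genes next to each other and to RAD51C, LOC114117093 and LOC114117060, were the only snRNAs called on the common scale, both higher. LOC114117093 had 75.9, 73.6, 134 and 128 normalised reads in subcutaneous and 244, 366, 235 and 313 in visceral fat (log2 fold change 1.52, SE 0.20, adjusted p = 1.36e-05). LOC114117060 had 118, 99, 179 and 158 against 257, 461, 275 and 393 (1.31, SE 0.19, adjusted p = 3.39e-05). Neither pair of groups overlapped, and the differences were larger within a set, at 1.99 and 1.67. The values of both genes follow each other closely, so that they may share reads and count as 1 result. Of the 37 tested snRNAs, 1 was higher and 14 were lower with the scaling as deposited, and 2 were higher and 5 lower in CPM. As deposited, the log2 fold change of LOC114117060 was 0.60 and not called.

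The 3 called snoRNAs, of 201 tested, were lower in visceral fat. With the scaling as deposited 55 of 202 snoRNAs were lower, and in CPM 0 were called. LOC114110209 lies inside TAF1D, whose product acts in transcription of ribosomal RNA, and had 167, 30.9, 173 and 187 normalised reads in subcutaneous and 44.3, 5.1, 11.3 and 29 in visceral fat (-2.69, SE 0.47, adjusted p = 0.0223). LOC114117359 had a log2 fold change of -2.31 and LOC114110203, in LOC114110053, of -2.06, with the same adjusted p. The early subcutaneous library, of sheep 908, was the lowest of its group for each of the 3. None of the 3 was called without the sheep block, with either set term, in CPM, with edgeR on recovered reads, or without sheep 902 or 928. Of 4 tested snoRNAs inside TAF1D only LOC114110209 was called, and their median was 0.59. Of 6 tested snoRNAs inside LOC114110053, 1 was called and all 6 had a fitted value below 0, against 119 of all 201 snoRNAs. Their median was -1.99, with -0.77 within a set and -2.57 in the other 2 sheep. LOC114110204, 1 of the 6, had the same log2 fold change (-0.48) as LOC114114221 and LOC114115929, which are not among them. Its reads may therefore be shared with these 2.

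Of the lncRNAs, 5 were higher and 10 lower in visceral fat, against 6 and 10 with the scaling as deposited and 16 and 2 in CPM, so that the share of higher calls was 33.3%, 37.5% and 88.9%. In a small RNA library such a count is of short fragments, and the role of most of these genes is not known. LOC114113790, whose neighbours include HES1, a target of Notch signalling, had 16, 32, 32.2 and 38.4 normalised reads in subcutaneous and 197, 207, 143 and 79.1 in visceral fat (2.34, SE 0.45, adjusted p = 0.00657). LOC114112617 had 213, 189, 288 and 334 against 1049, 1341, 709 and 1013 (2.002, SE 0.36, adjusted p = 0.00657). LOC105604251 overlaps PAX2, a transcription factor gene of kidney and urogenital development, and had 10.4, 9.52, 4.95 and 10.5 against 33.6, 31, 44.3 and 16.8 (1.69, SE 0.42, adjusted p = 0.0218). These 3 and LOC114116643, which overlaps TMTC4 (1.61, SE 0.44, adjusted p = 0.0334), did not overlap between depots. The subcutaneous values rested on 3 to 9 reads per library for LOC114116643 and on 6 to 13 for LOC105604251. Leaving aside the fit with their own spread, they lost their call in 5 of 17 and 3 of 18 alternatives.

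In LOC105616344, LOC106990385 and LOC101116687 the fall differed by library set. LOC105616344 had 592, 57.1, 470.1 and 381 normalised reads in subcutaneous and 211, 24, 20.8 and 18.1 in visceral fat, a log2 fold change of -2.86 (adjusted p = 0.00657, SE 0.55). It was high in the 4 later libraries and low in the 4 early ones: the mean difference was -1.35 in sheep 902 and 908 and -4.38 in sheep 924 and 928, whose libraries were of different sets. LOC106990385 gave -2.76 (SE 0.66, adjusted p = 0.0192), with -0.69 and -4.82 in these pairs of sheep, and LOC101116687 gave -2.39 (SE 0.53, adjusted p = 0.0136), with -0.997 and -3.77. None of these 3 was called with a set term beside the block, without the sheep block, or without sheep 924 or 928. LOC101116687, a transcribed pseudogene in RefSeq, holds the snoRNAs LOC114109764 and LOC114109765, and the latter moved like it (-1.93, SE 0.61, adjusted p = 0.0955, with -0.60 within a set and -3.26 otherwise).

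LOC114115026 was lower to a like extent in both pairs of sheep (-2.54, SE 0.55, adjusted p = 0.0136, with -2.55 within a set and -2.52 otherwise). It had 9.57, 40.7, 15.7 and 17.5 normalised reads in subcutaneous and 5.45, 1, 0.904 and 3.89 in visceral fat, and the visceral values rested on 1 to 6 reads. LOC105605445, chosen after its values were seen, overlaps MIR221 and was lower as well (-1.17, SE 0.30, adjusted p = 0.0234), so that its reads may be those of MIR221.

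**Figure D3:**
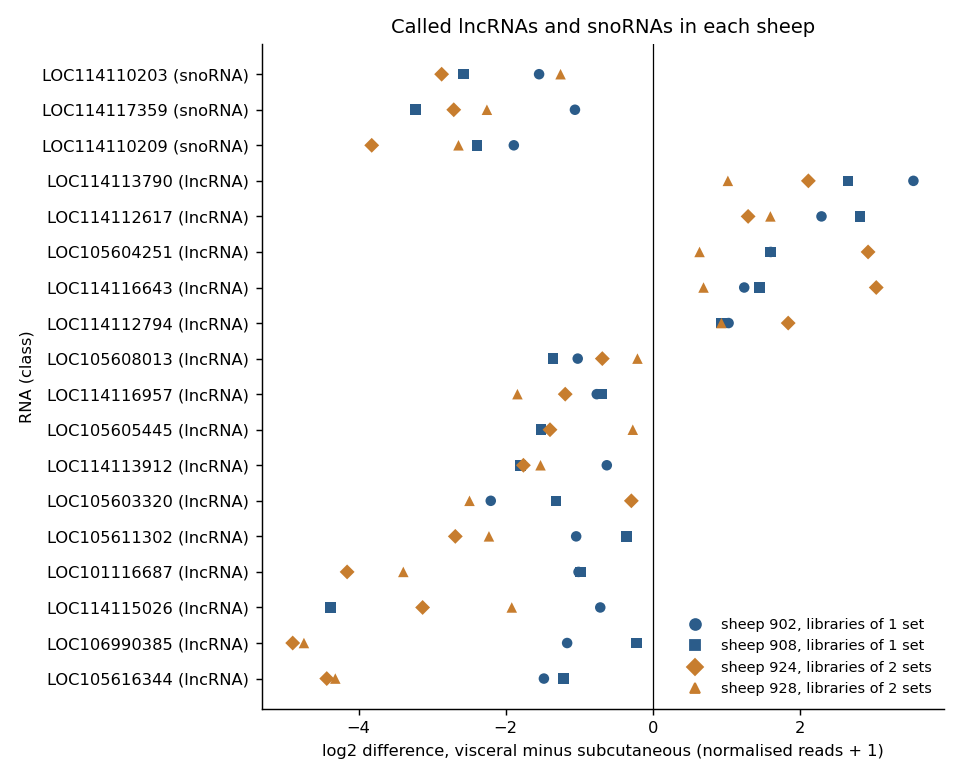
Visceral minus subcutaneous log2 difference of the 15 called lncRNAs and 3 called snoRNAs in each sheep, blue for sheep 902 and 908 (both libraries of 1 set) and orange for sheep 924 and 928 (libraries of 2 sets). For LOC105616344, LOC106990385 and LOC101116687 the orange symbols lie at -3.39 or below, apart from the blue ones, whereas for LOC114115026 both colours are mixed.

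The control sheep of the T cohort, 4 other animals, gave the same comparison in a separate set of tables. In 3 of these 4 sheep both libraries were of 1 set, and in the fourth the visceral library was the later one, the reverse of sheep 924 and 928. There 61 of 387 RNAs were called (15.8%), 26 higher and 35 lower, and 31 without the sheep block. Of the 48 RNAs called in the BPA cohort 47 were tested, and all 47 had the same direction, against 74.7% of the 380 RNAs tested in both cohorts. Among all microRNAs tested in both cohorts, 61 of 70 (87.1%) had the same direction. Of the 47, 34 were also called there, among them 26 of 27 microRNAs, 2 of 2 snRNAs, 6 of 15 lncRNAs and 0 of 3 snoRNAs. Over all RNAs tested in that cohort, 36 of 71 microRNAs, 7 of 31 snRNAs, 16 of 128 lncRNAs and 2 of 157 snoRNAs were called.

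MIR200B rose there from a mean of 2.27 to 55 normalised reads (log2 fold change 3.85, SE 0.53, adjusted p = 1.56e-06), and MIR218A by 2.13 (SE 0.35, adjusted p = 1.69e-05). Of 23 tested members of the DLK1-DIO3 region 11 were higher and 0 lower, with a median of 0.89. Of all 71 microRNAs tested there, 17 were higher and 19 lower, with a median of -0.05. MIR10B fell by 2.27 (SE 0.25, adjusted p = 4.13e-08) and MIR21 by 1.14 (SE 0.27, adjusted p = 0.000984), the latter in 3 of 4 sheep. MIR26A was the called microRNA that was not called there (-0.12, SE 0.18, adjusted p = 0.576). The lncRNAs that differed by set had values near 0, namely -0.30 for LOC105616344, -0.07 for LOC106990385 and -0.10 for LOC101116687, none of them called.

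The depot difference itself was compared between the control sheep of both cohorts, with 1 difference per sheep in limma. Of 380 RNAs 0 were called, and 37 had an unadjusted p under 0.05. The smallest p belonged to MIR150, with -0.50 in the BPA cohort and 0.89 in the T cohort, a difference of 1.39 (SE 0.40, adjusted p = 0.182). MIR10A had 0.49 and -0.88, a difference of -1.37 (SE 0.50, adjusted p = 0.401). Without sheep 908, 6 RNAs were called.

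**Figure D4:**
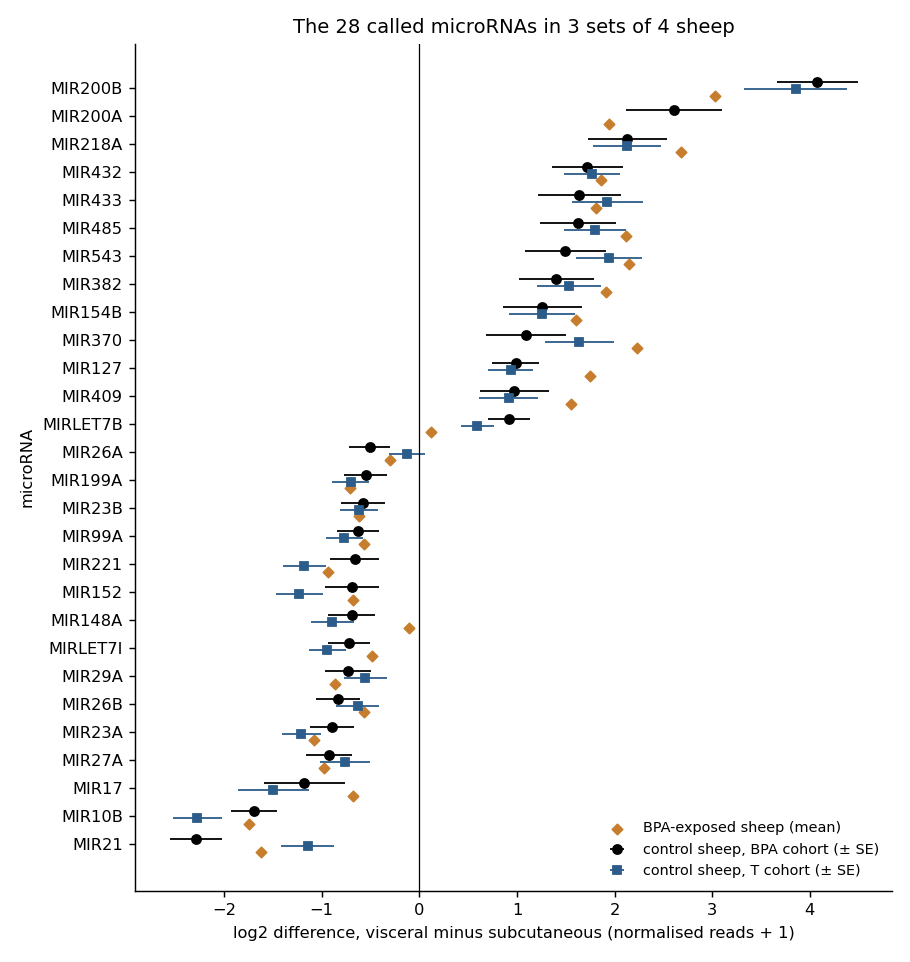
Visceral minus subcutaneous log2 difference of the 28 microRNAs called in control sheep of the BPA cohort (black, with SE), in control sheep of the T cohort (blue, with SE, MIR200A not tested there) and in BPA-exposed sheep (orange, mean of 4). Symbols of a row lie on the same side of 0 throughout, from 4.08, 3.85 and 3.03 for MIR200B to -2.29, -1.14 and -1.63 for MIR21.

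In BPA-exposed sheep, measured in the same tables as the controls, the depot difference had the same direction as in controls for all 28 called microRNAs and for 46 of the 48 called RNAs, against 77% of the 452 RNAs tested in both. Among all microRNAs tested in both, called or not, 64 of 73 (87.7%) had the same direction. The difference between exposed and control sheep, tested with 1 depot difference per sheep, was called for 3 of 468 RNAs (0.641%), all snRNAs, with 18 at an unadjusted p under 0.05. Both exceptions in direction were the pair of snRNAs next to RAD51C. On the scale of the 16 libraries, LOC114117093 had 131.6, 217, 103.2 and 279.6 normalised reads in subcutaneous and 83.1, 137, 143 and 124.4 in visceral fat of exposed sheep 910, 918, 977 and 984. Visceral fat was higher than subcutaneous fat in 1 of these 4 sheep, against 4 of 4 controls, and the mean log2 difference was -0.50 against 1.45, a difference of -1.95 (SE 0.31, adjusted p = 9.72e-08). LOC114117060 had -0.57 against 1.24, a difference of -1.81 (SE 0.32, adjusted p = 6.64e-07). Both p-values draw on a spread pooled across snRNAs, not on the spread of each gene alone. Within a set, LOC114117093 had differences of 1.39 and 2.33 in control sheep 902 and 908. It had -0.66, 0.47 and -1.16 in exposed sheep 910, 977 and 984. The libraries of these exposed sheep and of sheep 902 were of the later set, and those of sheep 908 of the early set. The part of the set was not tested. In the T cohort controls the pair had log2 fold changes of 1.16 and 0.80, both called.

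The third, LOC114109241, was low in most libraries and not called in controls. It had 6.30, 4.40, 7.23 and 8.08 normalised reads in subcutaneous and 12.3, 5.13, 10.7 and 15.5 in visceral fat of controls, and 7.74, 92.4, 7.37 and 21.8 against 12.1, 8.13, 3.54 and 4.70 in exposed sheep. The difference of -2.02 (SE 0.68, adjusted p = 0.0437) came with 1 high subcutaneous library, of exposed sheep 918, and without that sheep it was -1.48 and not called (adjusted p = 0.365). It was also not called without control sheep 902, 924 or 928, without exposed sheep 984, or as deposited.

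**Figure D5:**
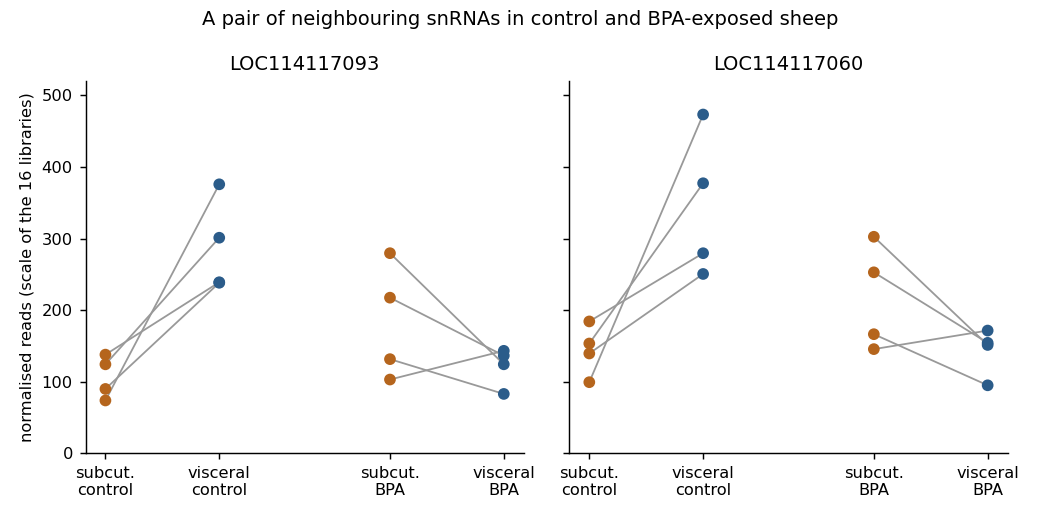
Normalised reads of LOC114117093 and LOC114117060 in subcutaneous (brown) and visceral (blue) fat of 4 control and 4 BPA-exposed sheep, with a line joining the libraries of a sheep. The lines rise in all 4 control sheep and in 1 of 4 exposed sheep for both genes.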

How the data were processed

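Small RNA libraries were made from adipose tissue with the NEBNext small RNA kit, per the labels' protocols. The submitters' processing notes list cutadapt 3.2, STAR 2.6.0c and featureCounts 1.6.1. Genome build and strand setting were not given in the sources used here. As values the authors deposited a signal: the read count of each feature over a size factor of its library. Whole reads were recovered from 100% of the values (tolerance 1e-05), and the factors found in this way equalled median-of-ratios factors computed within each depot and RNA class. The 8 columns of each class were rescaled here by their median ratio, and features with a mean of at least 5 were fitted as log2(value + 1) in limma 3.58.1 under R 4.3.3, modelling the trend of spread on level, sheep being the block. In the microRNA fit the spread was pooled fully across microRNAs. In the tests of the depot difference between groups of sheep it was pooled across snRNAs as well, and some of these snRNAs had identical values. The small adjusted p-values of snRNAs in those tests rest on this pooling. The same fit was checked on simulated data.

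The labels give both depots of each sheep, which pairs the libraries. Deviations from the group means correlated between libraries of 1 sheep with r = 0.45 (902), 0.28 (908), -0.25 (924) and -0.11 (928). Over the 12 pairs of libraries of a group chi-square divided by its degrees of freedom ran from 12.4 to 228, so each library was counted. Depth was 438194 to 1208561 reads per library. Alternatives were the block, a library set term, other scaling, pseudocounts and filters, edgeR 4.0.16 and DESeq2 1.42.0 on recovered reads, and each sheep left out. Named were the 12 largest calls in each direction among microRNAs, the 4 largest in each other class, and measured members of microRNA lists. The comparison, the lists and the rule were chosen with earlier results of these data known. Gene names and neighbours come from RefSeq, matched by symbol for 105 of 105 microRNAs, 621 of 694 snoRNAs, 1010 of 1148 snRNAs and 1372 of 2973 lncRNAs. Coordinates and sequences are not used here.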

Additional observations from a re-analysis of the deposited data

Results flagged for a closer look

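In groups of 4 libraries, 10 of 82 had a library that stood apart from the other 3 by Dixon's test, where chance gives about 1 in 20. Visceral sheep 902, the only later visceral library, was high for LOC105616344 (211), LOC106990385 (809), LOC101116687 (280.4), MIR127 (5846), and the snoRNA (2.55%) and snRNA (0.702%) shares of reads. Subcutaneous sheep 908, the only early subcutaneous library, was low for LOC114110209 (30.9). Subcutaneous sheep 902 was high for MIR543 (77.1), subcutaneous sheep 924 for MIR221 (2583), and visceral sheep 928 was low for MIR382 (80.1), all in normalised reads.

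The depot difference of BPA-exposed sheep differed from that of controls in limma for LOC114117093 (-1.95, adjusted p = 9.72e-08), LOC114117060 (-1.81, adjusted p = 6.64e-07) and LOC114109241 (-2.02, adjusted p = 0.0437). Visceral libraries were of the later set in 1 of 4 control and 3 of 4 exposed sheep, and the part of the set in these differences was not tested.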

How the results depend on the processing

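The 48 calls became 37 without the replicate block, of which 31 were the same RNAs, and 11 of the 37 named RNAs lost their call. They were 28 with a library set term and the replicate block (15 the same), 118 with the scaling as deposited (45 the same), 25 to 80 with 1 sheep left out (25 without sheep 924 and 80 without sheep 908), and 0 when each RNA had only its own spread (an alternative added after seeing the data, with 87 at an unadjusted p under 0.05). With edgeR they were 49 and with DESeq2 70. The 28 listed microRNAs called were 7 with the set term and replicate block, 18 with 1 fit over the 4 classes, 17 to 25 with 1 sheep left out, and 0 with their own spread only (24 at an unadjusted p under 0.05). In the T cohort controls 61 calls became 31 without the replicate block. The 0 calls between cohorts became 6 without sheep 908 and lay between 0 and 6 with 1 sheep left out. The 3 between exposed and control sheep lay between 2 and 5 with 1 sheep left out, where leaving out exposed sheep was added after seeing the data and 5 came without exposed sheep 910. Of 698 values of the 37 named RNAs under the alternatives, 540 kept their call, 158 lost it and 0 reversed. MIR200B, MIR200A, MIR21, MIR10B, MIR127, MIR23A, MIR26B and LOC114117093 kept theirs in all but the fit with their own spread. The causes were not tested. At 1 to 9 reads per library, as for MIR200A in subcutaneous fat, depth limits the precision of a level.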
